A study of Mus musculus with 11 samples.

Results

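SMAD proteins carry signals of the TGF-beta superfamily from cell-surface receptors to the nucleus, and the 10 genes described here encode 7 SMADs (Smad1 to Smad7) and 3 regulators that limit them, Ski, Skil and Smurf2. Receptors for TGF-beta and activin phosphorylate SMAD2 and SMAD3, those for bone morphogenetic proteins (BMPs) phosphorylate SMAD1 and SMAD5, and both kinds of receptor-regulated SMAD pair with the common partner SMAD4 to bind DNA. SMAD6 and SMAD7 block the receptor-regulated SMADs, SKI and SKIL are corepressors that sit on SMAD complexes, and SMURF2 is a ubiquitin ligase that marks pathway components for degradation. Several of these brakes are themselves switched on by the pathway and so act as feedback, which in wounded skin bears on how strongly fibroblasts respond to activin and TGF-beta.

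The genes were chosen by symbol, 10 of the 47643 symbols in the expression table, and all 10 were among the 11979 genes tested. Fibroblasts had been sorted from mouse back skin as live CD140a-positive cells lacking CD45, CD11b and F4/80 (the labels list CD3 as a further negative marker, the study's stated gate does not), and their RNA was sequenced to give RPKM, read numbers scaled by transcript length and by the mapped total of the library. Cells came from normal skin (NS) or from wounds at 5 days after injury (5dw) of wild-type (WT) mice or of mice that carry human INHBA, the gene of the activin A subunit, under the keratin 14 promoter in keratinocytes (K14-Act, called Act), so that fibroblasts are not the cells in which the transgene promoter is active. All groups were female F1 mice of CD-1 and C57Bl/6 background aged 9-12 weeks, and each library pooled the RNA of 3 mice. There were 3 libraries each of WT NS, Act NS and WT 5dw, and 2 of Act 5dw (numbers 1 and 3), a further Act 5dw library having been excluded by the authors in quality control.

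Depth, recovered from the RPKM steps, was 18649304 to 39701479 mapped reads per library. The recovered WT 5dw totals, 38741076 to 39701479, were above the approximate read number that the paper states per sample. The reason was not tested. Act NS replicate 1 had the lowest summed RPKM (225686, against 240740 to 278066 in the others). Pdgfra, which encodes CD140a, was at 29.6 to 65.3 RPKM, whereas Ptprc (CD45) stayed at or below 0.0498 RPKM and Adgre1 (F4/80) at or below 0.119 RPKM. Cd3e, which encodes a chain of the CD3 complex, was at 2.94 to 33.9 RPKM in NS and 55.5 to 105 RPKM in 5dw. The summed RPKM of 14 keratinocyte markers was 1087 to 4299 in NS and 164 to 438 in 5dw apart from WT 5dw replicate 3 at 1428. In each genotype 10 of the 14 were lower in 5dw, or 8 after median-ratio scaling (explained further on), and 1 was higher in WT. Among all genes tested, 48.8% were lower and 9.45% higher in WT 5dw, 36.5% and 9.04% in Act 5dw, and after scaling 22.2% and 22.4% in WT and 20.8% and 19.9% in Act. Of 15 immune markers, 7 were tested, and their list summed to 17.1 to 49.9 RPKM in NS and 72.2 to 125 in 5dw, or to 11.8 to 18.5 RPKM in NS and 14.8 to 36.1 in 5dw without Cd3e. The 14 fibroblast markers summed to 14424 to 20170 RPKM in NS and 25178 to 28642 in 5dw. Without the collagen genes Col1a1, Col1a2 and Col3a1 they summed to 8107 to 10033 RPKM in NS and 5315 to 6255 in 5dw, and in WT 7 of the 14 were lower in 5dw and 4 higher, or 2 and 5 after scaling, Pdgfra being at 49.8 to 65.3 RPKM in NS and 29.6 to 37.3 in 5dw. In the proliferation list, 13 of 14 proliferation genes were higher in WT 5dw than in WT NS, and 10 of 14 in Act. Of 10 endothelial markers 4 were tested and the list summed to 23.2 to 40.6 RPKM in NS and 22.4 to 29.5 in 5dw, within which Pecam1 was at 3.39 to 5.66 in NS and 11.5 to 14.0 in 5dw and Tek at 13.9 to 29.4 in NS and 4.74 to 10.2 in 5dw. Of 9 pericyte markers 7 were tested, and the list summed to 57.1 to 114 RPKM over both tissues. Ndufa4l2 made up 41.6 to 96.2 RPKM of that sum. In WT 1 was higher and 3 lower in 5dw, and in Act 2 and 2, or 2 and 1 in each genotype after scaling. Cspg4 was at 3.76 to 7.23 RPKM in NS and 0.795 to 1.22 in 5dw, and Notch3 at 1.55 to 4.29 and 0.658 to 1.43. Abcc9 was higher in 5dw, at 2.50 to 4.85 RPKM in NS and 5.53 to 11.1 in 5dw. The 16 dissociation-response genes summed to 7501 to 11624 RPKM in NS, with WT NS replicate 1 at the top, and to 6828 to 8661 RPKM in 5dw. In WT 1 of them was higher and 5 lower in 5dw, and in Act 1 and 2. After scaling 3 were higher and none lower in each genotype. Ier3 was at 137 to 230 RPKM in NS and 648 to 810 in 5dw, and Hspa1b at 314 to 949 and 162 to 293. The keratinocyte and proliferation lists, and the fibroblast markers with and without the collagens, moved with the tissue from which the cells came. Single genes that did so included Cd3e, the immune gene S100a9, Pecam1, Tek, Cspg4, Notch3, Abcc9, Ier3 and Hspa1b. The part of these lists and genes in the results for the SMAD genes was not tested.

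Levels of the 10 genes spanned more than an order of magnitude. RPKM is scaled by transcript length, so the levels can be set side by side. Ski was the most abundant, with 32.4 to 51.1 RPKM in NS and 22.1 to 25.4 in 5dw, above every other gene of the group in every library. Smad4, Skil and Smad7 came next in NS and overlapped, with medians of 14.6, 15.5 and 14.7 RPKM. In 5dw, Smad4 (13.9 to 15.3 RPKM) stood above Skil (9.48 to 13.4 RPKM) and Smad7 (9.45 to 12.2 RPKM), which overlapped each other. Smad5 and Smurf2 followed at NS medians of 11.03 and 10.97 RPKM and did not differ beyond their spread. Smad3, Smad1 and Smad2 had NS medians of 8.03, 7.43 and 7.17 RPKM, with overlapping ranges. Smad6 was the least abundant, with 1.79 to 3.38 RPKM in NS and 1.03 to 1.41 in 5dw, which rested on 68 to 273 reads per library. Among all tested genes, Ski lay between percentiles 88.3 and 93.8 of a library and Smad6 between 17.5 and 38.1.

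**Figure D1:**
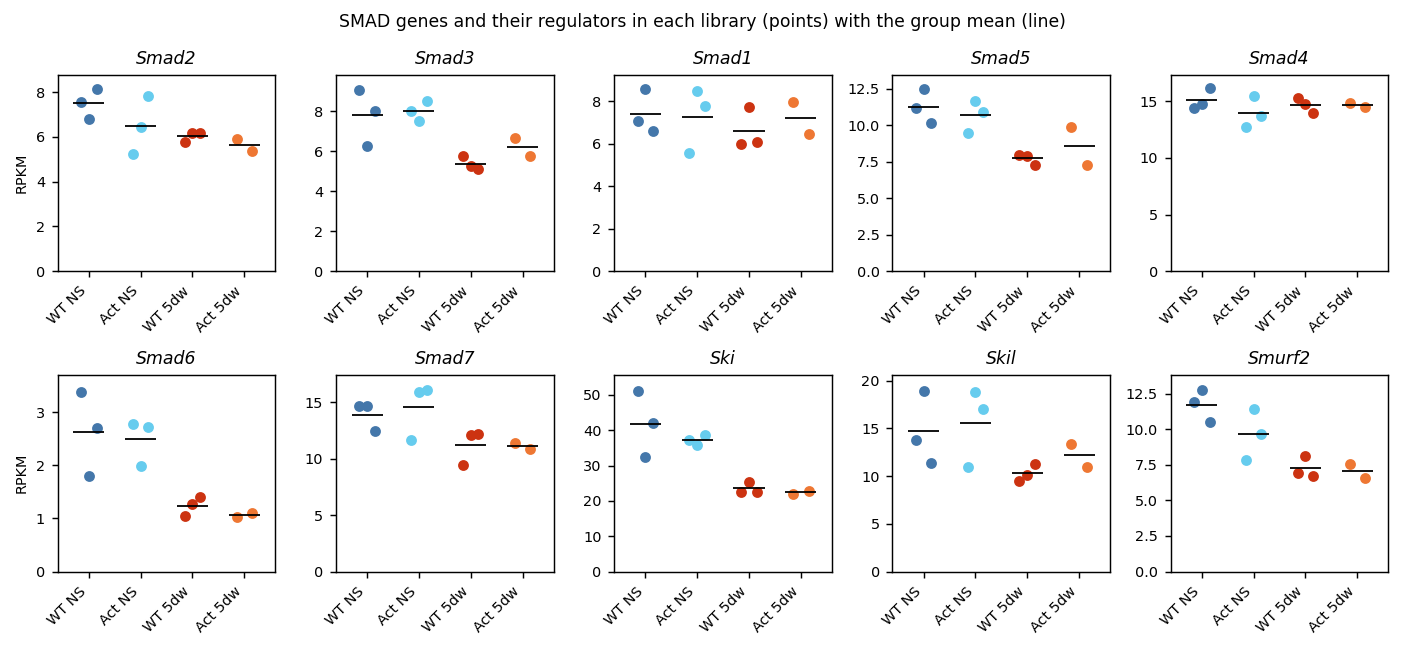
RPKM of each gene (vertical axis, starting at 0, a separate scale per panel) in each of the 11 libraries (points) of WT NS, Act NS, WT 5dw and Act 5dw (horizontal axis), with group means as lines. For Smad6 and Ski every 5dw point lies below every NS point, whereas the Smad4 points of all 4 groups share one range from 12.7 to 16.2 RPKM.

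Upstream sequence is shown for Smad6, Ski and Smurf2, the 3 genes whose level relative to Smad4 was lower in every 5dw library than in any NS library, as it was for 42.5% of all genes (values are given further on). RefSeq windows of 250 bases before to 50 bases after the annotated start (GRCm38.p6) were at hand for 6 of the 10 genes, namely Smad1, Smad3, Smad5, Smad6, Ski and Smurf2. The palindrome GTCTAGAC, which joins a pair of SMAD-binding elements and reads the same on both strands, was in 70 of 32851 windows (0.213%), one of which was that of Smad6. It covers chr9:64022056-64022063 on the minus strand, 4 bases before and 4 bases from the annotated start of Smad6, and stands in capitals in the 30 bases at chr9:64022045-64022074.

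Smad6 start site: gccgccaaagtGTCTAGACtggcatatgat

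The shorter element CAGAC (or GTCTG on the other strand) was in 49.6% of all windows. The GC-rich element GGCGC (or GCGCC), which BMP-regulated SMADs are known to bind, was in 36.9% of all windows and in the windows of 5 of the 6 genes, Smad3 being the exception. The full windows of these 3 genes were rich in G and C, at 66.3% for Smad6, 85.3% for Ski and 80.3% for Smurf2. The median over all windows was 52.7%. These shares describe the windows and not the stretches printed below. In the stretches below, read 5′ to 3′ on the minus strand and ending where the GENCODE M21 gene begins, GGCGC and GCGCC are in capitals and may overlap as GGCGCC. They cover chr9:64022060-64022309 for Smad6, chr4:155222593-155222785 for Ski and chr11:106920716-106920965 for Smurf2. A match describes these letters and not a bound site.

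Smad6 upstream: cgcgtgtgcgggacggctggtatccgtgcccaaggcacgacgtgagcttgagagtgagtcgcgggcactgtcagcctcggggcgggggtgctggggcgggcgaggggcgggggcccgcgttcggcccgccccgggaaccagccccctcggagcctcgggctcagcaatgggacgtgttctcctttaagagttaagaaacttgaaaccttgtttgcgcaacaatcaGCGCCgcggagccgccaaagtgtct

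Ski upstream: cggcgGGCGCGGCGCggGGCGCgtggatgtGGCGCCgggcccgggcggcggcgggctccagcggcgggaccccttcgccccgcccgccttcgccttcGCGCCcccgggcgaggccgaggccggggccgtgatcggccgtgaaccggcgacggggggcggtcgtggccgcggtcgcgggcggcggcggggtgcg

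Smurf2 upstream: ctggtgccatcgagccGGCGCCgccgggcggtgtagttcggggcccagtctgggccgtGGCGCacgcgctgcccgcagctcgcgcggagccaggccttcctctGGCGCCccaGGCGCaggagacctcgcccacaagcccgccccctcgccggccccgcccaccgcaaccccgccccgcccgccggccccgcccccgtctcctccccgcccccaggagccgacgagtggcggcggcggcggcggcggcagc

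In GRCm38 (GENCODE M21), Smad6 lies at chr9:63953076-64022059 and Smad3 at chr9:63646767-63757994, both on the minus strand with 195081 bases between them. Ski lies at chr4:155154075-155222592 and Smurf2 at chr11:106820066-106920715, both on the minus strand. Skil is at chr3:31095058-31122577 on the plus strand, Smad1 at chr8:79338395-79399518 on the minus strand, and Smad5 at chr13:56703010-56742377 on the plus strand. Smad2, Smad4 and Smad7 are on chromosome 18. Exons of Smad5 share 1.35% of their bases with Gm27301 and those of Smurf2 share 0.941% with Gm27322, and no other gene of the 10 overlaps an annotated exon of another gene.

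The first question taken up here was how the fibroblasts of a 5-day wound differ from those of unwounded skin. The paper's own question, the effect of activin, is taken up further on. In WT mice, 5 of the 10 genes fell in RPKM, namely Smad6, Ski, Smurf2, Smad5 and Smad3, and none rose. That share has to be read against all tested genes, of which 48.8% were lower and 9.45% higher in this comparison (limma on log2(RPKM + 0.5), Benjamini-Hochberg adjusted p under 0.05). The median log2 fold change (log2FC) of all tested genes was -0.40, and that of the 10 genes was -0.47, 6 of them lying below the median of all genes. In bulk RNA, fewer cells that express a gene and less of its RNA per cell cannot be told apart.

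Smad6, an inhibitor mainly of BMP signalling, was at 3.38, 1.79 and 2.71 RPKM in the WT NS libraries and at 1.04, 1.27 and 1.41 RPKM in WT 5dw. The groups did not overlap, and the means were 2.63 ± 0.797 (SD, n = 3) and 1.24 ± 0.187 (SD, n = 3). Its log2FC was -0.82 (SE 0.19, limma adjusted p = 0.00421), the lowest of the 10 genes in WT. Ski, the corepressor, was at 51.1, 32.4 and 42.1 RPKM in WT NS and at 22.7, 25.4 and 22.6 RPKM in WT 5dw. One NS library was well below the others and still above every wound library, and the log2FC was -0.79 (SE 0.15, limma adjusted p = 0.0014). Smurf2, the ubiquitin ligase, was at 11.9, 12.7 and 10.5 RPKM in WT NS and at 6.94, 8.09 and 6.68 RPKM in WT 5dw, again without overlap. Its log2FC was -0.66 (SE 0.15, limma adjusted p = 0.00333). None of the 3 genes was called in WT after median-ratio scaling. Their scaled log2FC were -0.46 for Smad6, -0.34 for Ski and -0.23 for Smurf2 (limma adjusted p = 0.0809, 0.0887 and 0.19).

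Among the receptor-regulated SMADs, one of each branch fell in WT wounds in RPKM, where 48.8% of all genes were lower. Neither was called after median-ratio scaling, at a log2FC of -0.08 for Smad5 (limma adjusted p = 0.663) and -0.06 for Smad3 (limma adjusted p = 0.75). Smad5, of the BMP branch, was at 11.1, 12.4 and 10.1 RPKM in WT NS and at 7.97, 7.91 and 7.28 in WT 5dw, with a log2FC of -0.51 (SE 0.14, limma adjusted p = 0.00929). Smad3, of the activin and TGF-beta branch, was at 9.08, 6.26 and 8.03 RPKM in WT NS and at 5.76, 5.28 and 5.11 in WT 5dw, with a log2FC of -0.48 (SE 0.14, limma adjusted p = 0.0118). For both, each wound library lay below each NS library of the same genotype. Their branch partners did not pass the test. Smad1 had a log2FC of -0.16 (limma adjusted p = 0.455) with overlapping groups, and Smad2 one of -0.29 (limma adjusted p = 0.101) although its 3 wound libraries (5.79 to 6.18 RPKM) were below the 3 NS libraries.

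The remaining genes also missed the threshold in WT. Skil, the second corepressor, was at 13.8, 19.0 and 11.3 RPKM in WT NS and at 9.48, 10.2 and 11.2 RPKM in WT 5dw, a log2FC of -0.47 with an interval from -0.95 to 0.02 (limma adjusted p = 0.0881). Smad7, the general inhibitory SMAD, was at 14.6, 14.7 and 12.4 RPKM in WT NS and at 9.45, 12.1 and 12.2 RPKM in WT 5dw, a log2FC of -0.30 with an interval from -0.64 to 0.04 (limma adjusted p = 0.113). For both genes the wound libraries lay just below the NS libraries, by a narrow margin. Smad4, the common partner, was at 14.4, 14.8 and 16.2 RPKM in WT NS and at 15.3, 14.7 and 13.9 RPKM in WT 5dw, and its log2FC of -0.04 (SE 0.11, limma adjusted p = 0.756) compares with a median of -0.40 over all genes.

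In Act wounds, 2 of the 10 genes fell in RPKM, Smad6 and Ski, and none rose, against 36.5% of all genes lower and 9.04% higher. Smad6 was at 2.78, 1.99 and 2.73 RPKM in Act NS and at 1.03 and 1.11 RPKM in Act 5dw, with a log2FC of -0.92 (SE 0.21, limma adjusted p = 0.00545). Ski was at 37.4, 35.9 and 38.7 RPKM in Act NS and at 22.1 and 22.9 RPKM in Act 5dw, with a log2FC of -0.72 (SE 0.17, limma adjusted p = 0.0063). Neither gene overlapped between wound and NS. After median-ratio scaling Smad6 kept its call in Act and Ski did not (log2FC -0.37, limma adjusted p = 0.107). A voom fit to recovered read counts called neither in Act. It gave -0.83 for Smad6 (adjusted p = 0.0864) and -0.38 for Ski (adjusted p = 0.102). Smurf2 (log2FC -0.41, limma adjusted p = 0.0616) and Smad3 (-0.34, limma adjusted p = 0.0896) were below 0 by the unadjusted interval but missed the adjusted threshold. With the replicate number as a block, Smad3 passed in Act (log2FC -0.41, limma adjusted p = 0.0394). Smad7 (-0.36), Skil (-0.32), Smad5 (-0.31) and Smad2 (-0.17) had intervals that included 0. Smad1 (-0.43 to 0.43) and Smad4 (-0.20 to 0.34) had intervals around 0. With 1 library left out at a time, Smad7 ran from -0.51 to -0.28 and Skil from -0.55 to -0.17. Smad5 then ran from -0.52 to -0.10 and Smad2 from -0.31 to -0.04. The median log2FC was -0.31 over all genes and -0.33 over the 10.

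Across both genotypes, 2 of the 10 genes, Smad6 and Ski, had all 5 wound libraries below all 6 NS libraries in RPKM, and none had them all above. The corresponding shares of all tested genes were 38.9% and 8.45%. Leaving out a library ended none of these calls and added some. Without Act NS replicate 1, the library with the lowest summed RPKM, 7 genes were called in WT (Smad2 at adjusted p = 0.0481 and Skil at 0.0391 joined) and 4 in Act (Smad7 at adjusted p = 0.0197 and Smurf2 at 0.0135 joined). Skil was also called in WT without WT NS replicate 3 (adjusted p = 0.0438), Smad3 in Act without WT NS replicate 2 (adjusted p = 0.0373) and Smad5 in Act without Act 5dw replicate 1 (adjusted p = 0.0441), all by limma.

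Because most genes were lower in 5dw in RPKM, the libraries were also put on a common scale by the median ratio of their genes to a reference, with factors of 0.972 to 1.27 for NS and 0.839 to 0.879 for 5dw. On that scale the medians of all genes were near 0, at -0.0043 in WT and 0.0019 in Act. The calls among the SMAD genes changed with the scale. Smad4 was the only gene called in WT, and it rose by a log2FC of 0.40 (SE 0.09, limma adjusted p = 0.00379). In Act, Smad4 rose by 0.41 (SE 0.10, limma adjusted p = 0.00653) and Smad6 fell, with a log2FC of -0.66 (SE 0.22, limma adjusted p = 0.035). On this scale 22.2% of all genes were lower and 22.4% higher in WT, and 20.8% were lower and 19.9% higher in Act. Scaled Smad4 was at 11.9 to 13.6 RPKM in the 6 NS libraries and 16.1 to 17.4 RPKM in the 5 wound libraries, without overlap. It was the only one of the 10 genes whose scaled wound libraries all lay above NS, as did 20.5% of all genes, and no gene of the 10 had them all below, as 20.3% of all genes did. Scaled Smad6 was at 1.56 to 2.88 RPKM in NS and 1.18 to 1.63 in 5dw, so that the tissues overlapped, and in WT its log2FC was -0.46 (limma adjusted p = 0.0809). Ski kept a negative log2FC of -0.34 in WT and -0.37 in Act but missed the threshold (limma adjusted p = 0.0887 and 0.107). Smurf2, Smad5 and Smad3 were at -0.23, -0.08 and -0.06 in WT, none of them called. A voom fit to recovered read counts called Smad4 alone, at 0.41 in WT (adjusted p = 0.0036) and 0.43 in Act (adjusted p = 0.00759). It called 22.8% of all genes higher and 23% lower in WT, and 18.7% higher and 18% lower in Act. In the voom fit too the medians of all genes were near 0, at -0.006 in WT and 0.0039 in Act. It therefore does not test the choice of scale. With voom Smad6 missed the threshold at -0.62 in WT (adjusted p = 0.0616) and -0.83 in Act (adjusted p = 0.0864).

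**Figure D2:**
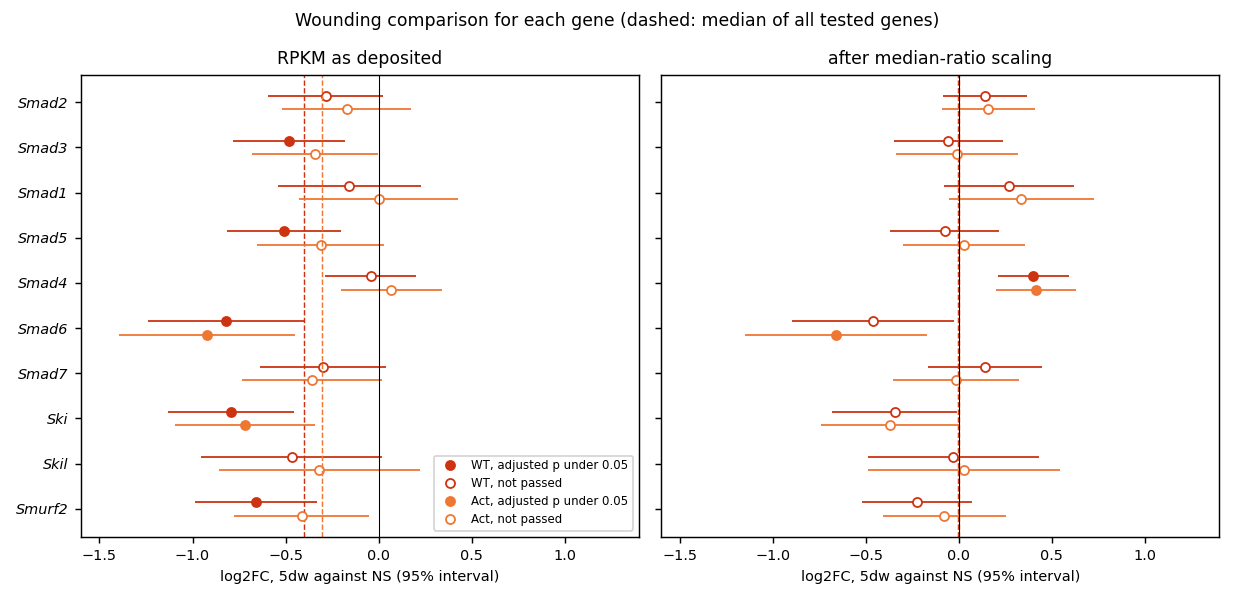
Log2FC of each gene between 5dw and NS (horizontal axis, bars give the 95% interval) in WT and Act, from RPKM as deposited (left) and after median-ratio scaling (right), with filled points for adjusted p under 0.05 and dashed lines at the median of all tested genes. On the left Smad6 and Ski lie farthest below 0 in both genotypes, and on the right Smad4 lies above 0 at 0.40 and 0.41.

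The ratio of a pair of genes within one library does not depend on how libraries are scaled. Relative to Smad4, 3 of the other 9 genes were lower in all 5 wound libraries than in all 6 NS libraries, namely Smad6, Ski and Smurf2, and none was higher, whereas 42.5% of all genes were lower than in NS by this measure and 8.53% higher. The Smad6 to Smad4 ratio was 0.121 to 0.235 in NS and 0.0679 to 0.101 in 5dw. The Ski to Smad4 ratio was 2.20 to 3.55 in NS and 1.48 to 1.72 in 5dw. The Smurf2 to Smad4 ratio was 0.614 to 0.863 in NS and 0.453 to 0.549 in 5dw. For each of these genes the wound libraries of both genotypes lay on one side of the NS libraries. For Smad3, Smad5, Smad7, Skil, Smad1 and Smad2 the tissues overlapped in this ratio.

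**Figure D3:**
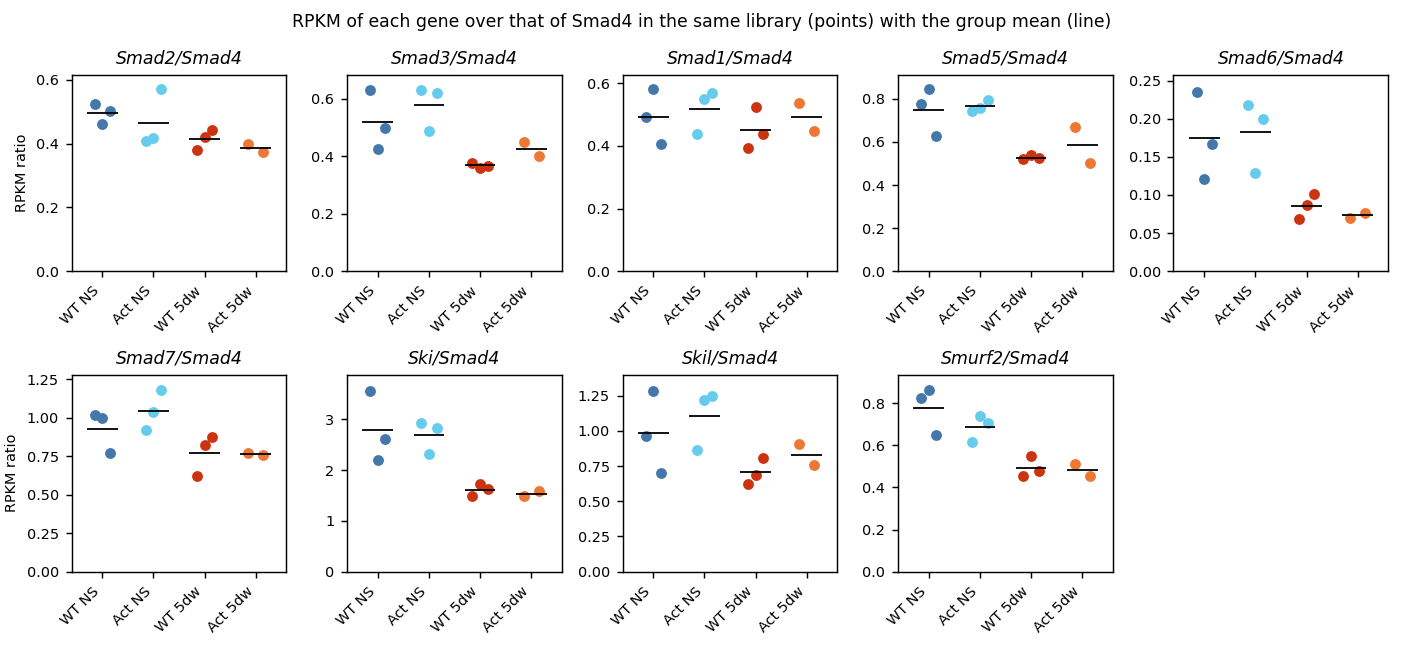
RPKM of each of 9 genes divided by that of Smad4 in the same library (vertical axis, starting at 0) for the 11 libraries (points) by group, with group means as lines. Wound and NS points do not overlap for Smad6, Ski and Smurf2, with wound ratios of at most 0.101, 1.72 and 0.549.

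Over all 45 pairs of the 10 genes, 8 ratios did not overlap between wound and NS libraries, against 43.5% of all pairs of 11848 genes. Besides the 3 with Smad4, they included Smad1 to Smad5, the SMADs of the BMP branch, whose ratio was 0.588 to 0.726 in NS and 0.751 to 0.976 in 5dw. They also included Smad6 to Smad7, the inhibitory SMADs, at 0.122 to 0.238 in NS and 0.0907 to 0.116 in 5dw. The other 3 were Smad1 to Smurf2 (0.593 to 0.806 in NS and 0.863 to 1.05 in 5dw), Smad2 to Smad6 (1.88 to 3.80 and 4.39 to 5.71) and Smad2 to Ski (0.140 to 0.210 and 0.236 to 0.273).

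The second question was whether activin overexpression in keratinocytes altered the SMAD genes of fibroblasts. Mouse Inhba, the gene matching the transgene in the table, was at 3.40 to 6.93 RPKM in WT NS and 36.3 to 91.1 RPKM in Act NS, a log2FC of 3.30 (SE 0.36, limma adjusted p = 0.0128). The transgene is human, and whether its reads were assigned to mouse Inhba was not tested. Over Act NS replicates 1, 2 and 3, Inhba was at 36.3, 59.1 and 91.1 RPKM and the keratinocyte marker Krt14 at 194, 344 and 493. In WT NS, Inhba was at 6.75, 6.93 and 3.40 RPKM and Krt14 at 192, 264 and 259. Whether keratinocyte RNA contributed to the Inhba values was not tested. In 5dw, Inhba was at 15.8 to 24.0 RPKM in WT and 26.2 and 50.2 RPKM in Act, a log2FC of 0.86 (limma adjusted p = 1).

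None of the 10 SMAD genes passed the test between genotypes in NS, where 0.0167% of all genes did, or in 5dw, where 0.0334% did, and none had an unadjusted p under 0.05 in either comparison by limma or by voom. In NS the log2FC ran from -0.28 (Smurf2) to 0.08 (Skil), and the 95% intervals of the 10 genes reached from -0.61 at the lowest to 0.56 at the highest. In 5dw the log2FC ran from -0.14 (Smad6) to 0.23 (Skil), with intervals from -0.61 to 0.77. Those ends come from different genes, and single genes had narrower intervals, such as -0.36 to 0.13 for Smad4 in NS. Smad7, the inhibitor that TGF-beta and activin are known to induce, was at 11.7, 16.0 and 16.1 RPKM in Act NS against 12.4 to 14.7 in WT NS, and at 11.4 and 10.9 RPKM in Act 5dw. Its interval was -0.28 to 0.39 in NS and -0.38 to 0.37 in 5dw. Skil, another gene that the pathway is known to induce, was at 10.98, 18.8 and 17.1 RPKM in Act NS and at 13.4 and 10.95 RPKM in Act 5dw, and it overlapped WT in both tissues.

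In RPKM, Smad3 was the only gene of the 10 whose genotypes did not overlap in 5dw, as was the case for 23% of all tested genes, and none of the 10 was without overlap in NS, where 8.97% of all genes were. After median-ratio scaling, Skil joined Smad3 in 5dw, against 21.9% of all genes. The Act 5dw libraries of Smad3, at 6.66 and 5.77 RPKM, lay above the 3 WT 5dw libraries, the nearest of which was at 5.76 RPKM, and the log2FC was 0.19 with an interval from -0.15 to 0.53 (limma adjusted p = 1). The Smad3 to Smad2 ratio was 0.827 to 0.995 in WT 5dw and 1.07 to 1.13 in Act 5dw, and it was 0.921 to 1.20 in WT NS and 1.08 to 1.54 in Act NS. No test was made of this ratio. The interaction, which asks whether wounding acted differently in Act and WT, was called for no SMAD gene and for 0% of all genes by limma, with 400 genes and none of the 10 at an unadjusted p under 0.05. The calls of Smad3, Smad5 and Smurf2 in WT and not in Act are therefore not shown to differ between the genotypes.

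**Figure D4:**
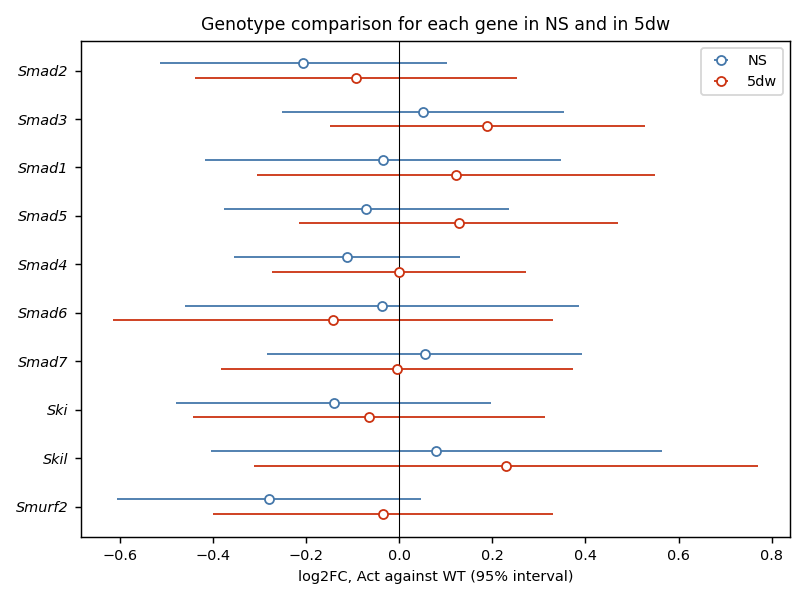
Log2FC of each gene between Act and WT (horizontal axis, bars give the 95% interval) in NS and in 5dw. All 20 intervals include 0, and the points lie between -0.28 and 0.23.

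Further genes of the pathway were counted from lists of known regulators and targets. Of 57 other regulators of SMAD signalling, 54 were tested, and 35 were lower and 2 higher in WT 5dw in RPKM, with a median log2FC of -0.59, while 29 were lower and 2 higher in Act with a median of -0.51. Over all tested genes, 48.8% were lower and 9.45% higher in WT, and 36.5% and 9.04% in Act. After median-ratio scaling 19 were lower and 7 higher in WT, and 16 lower and 6 higher in Act, with medians of -0.17 and -0.19, where 22.2% of all genes were lower and 22.4% higher in WT, and 20.8% and 19.9% in Act. None passed between genotypes. The changes of greatest size among those called in both genotypes were for Tob2, an antiproliferative protein of the TOB family, with log2FC -2.06 in WT and -2.04 in Act, and for Sik1, a kinase that TGF-beta induces and that acts with SMAD7 on the receptor, with -1.96 and -1.93. The corepressors Tgif2 (-1.61 and -1.44) and Tgif1 (-0.95 and -1.12), the Sin3a scaffold of histone deacetylase complexes (-1.28 and -0.93) and Zfyve9, which presents SMAD2 and SMAD3 to the receptor (-1.06 and -1.07), also fell in both. So did Sertad1 (-1.17 and -1.38) and the phosphatase gene Ctdspl (-1.01 and -1.03). All 8 were also called after scaling, but the log2FC moved by over 1.5 times for Tgif1 (-0.50), Sertad1 (-0.72), Ctdspl (-0.61) and Zfyve9 (-0.66) in WT and for Sin3a (-0.60) in Act. The 2 regulators that rose were picked out after their values were seen. Pmepa1, which sequesters SMAD2 and SMAD3, rose by 0.75 in WT and 0.49 in Act, and its relative Ldlrad4 by 0.59 and 0.39, all called by limma on either scale. After scaling Pmepa1 was at 1.19 and 0.84 and Ldlrad4 at 1.01 and 0.72.

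Of 28 listed genes that SMAD2 and SMAD3 are known to induce, 27 were tested, and 14 were higher and 5 lower in WT 5dw, with 12 higher and 2 lower in Act. Their median log2FC was 0.65 in WT and 0.39 in Act, and 1.09 and 0.72 after scaling, when 16 were higher and 2 lower in WT and 14 higher and 2 lower in Act. The list shares Pmepa1, Ldlrad4, Tgif1 and Bambi with the regulators. Over all genes, 9.45% were higher and 48.8% lower in WT, and 9.04% and 36.5% in Act. After scaling, 22.4% were higher and 22.2% lower in WT, and 19.9% and 20.8% in Act. The genes lower in WT were Klf10, Tgif1, Nox4, Junb and Tgfbi. Of these, Klf10 (-1.19 and -1.04, or -0.75 and -0.69 after scaling) and Tgif1 were lower in Act too. Klf10, Nox4, Junb and Tgfbi were named after their values were seen. After scaling 2 genes of the list were lower in WT, Tgif1 being one (log2FC -0.50, limma adjusted p = 0.0419). At most 2 of these 5 genes thus kept a call in WT. Tnc, which encodes the matrix protein tenascin C, had a mean of 5.67 RPKM in WT NS and 425 RPKM in WT 5dw (log2FC 6.18, limma adjusted p = 6.16e-07). Timp1, an inhibitor of matrix metalloproteinases, rose by 3.96 in WT and 3.84 in Act on the log2 scale. The contractile genes Acta2 (3.38 and 3.16) and Tagln (2.39 and 2.12) rose too, as did Ltbp2 (2.28 and 1.85), Postn (1.27 and 2.03) and, at 1.51 in WT, the collagen gene Col1a1, which was also called in Act. Between genotypes in NS, Inhba alone of the list passed the test.

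Genes that BMP-regulated SMAD1 and SMAD5 are known to induce formed the last list. Of 14 listed, 11 were tested, and 9 were lower and none higher in each genotype, beside 48.8% of all genes lower in WT and 36.5% in Act, with median log2FC of -1.15 in WT and -1.30 in Act. After scaling, 8 were lower and 2 higher in each genotype, with medians of -0.79 and -1.02, beside 22.2% of all genes lower and 22.4% higher in WT and 20.8% and 19.9% in Act. Id1, an inhibitor of basic helix-loop-helix factors, had means of 20.3 RPKM in WT NS and 2.82 RPKM in WT 5dw, and its log2FC was -2.67 in WT and -2.54 in Act (limma adjusted p = 5.12e-05 and 0.000206). Id3 fell from a mean of 117 RPKM in WT NS to 44.1 RPKM in WT 5dw (log2FC -1.39), and Id2 from 78.7 to 34.8 RPKM (log2FC -1.15). Msx1 (-1.56), Nog, which encodes the BMP antagonist noggin (-1.61), Atoh8 (-1.53), Id4 (-1.11) and Hey1 (-0.99) fell in WT as well, and all were called in Act. After scaling, Id2 was at -0.70 and Id4 at -0.72 in WT, both still called. None of the 11 passed between genotypes. Smad6 and Smad7 are known targets of the BMP-regulated SMADs also, and their log2FC of -0.82 and -0.30 in WT were closer to 0 than the median of this list.

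**Figure D5:**
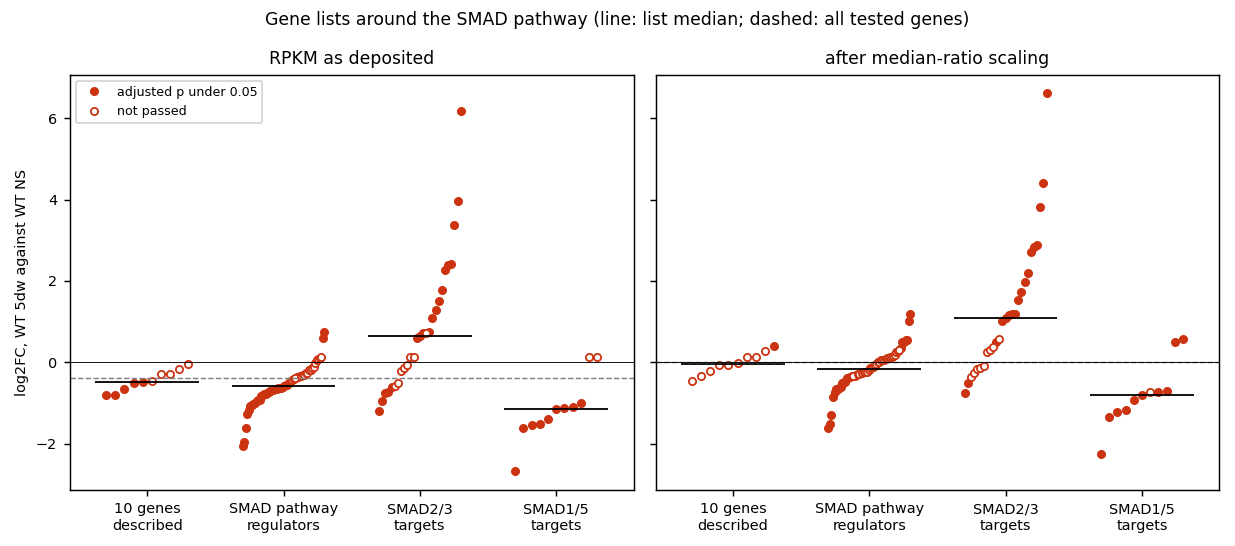
Log2FC between WT 5dw and WT NS (vertical axis) for the 10 genes, 54 other SMAD pathway regulators, 27 SMAD2/3 targets and 11 SMAD1/5 targets (one point per gene), from RPKM as deposited (left) and after scaling (right), with list medians as lines. The medians are -0.47, -0.59, 0.65 and -1.15 on the left, around a median of -0.40 for all tested genes.

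Each of the 10 genes was set beside the tested gene whose log2(RPKM + 0.5) tracked it most closely over the 11 libraries, as a description, since the libraries share the step between NS and 5dw. Smad6 lay nearest to Podn (Pearson r = 0.992), Ski to Adamtsl5 (r = 0.991), Smad5 to Sclt1 (r = 0.990), Smurf2 to Aif1l (r = 0.987) and Smad3 to Lrch4 (r = 0.980). For Smad2 it was Toe1 (r = 0.957), for Skil F5 (r = 0.954), for Smad7 Oser1 (r = 0.946) and for Smad1 Ptx3 (r = 0.945). Smad4 had the lowest such value of the 10, with Top1mt (r = 0.913). No gene of the 10 had another of the 10 as its nearest gene.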

How the data were processed

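RNA of sorted fibroblasts was sequenced as 100 bp single-end poly-A libraries, mapped to GRCm38 and quantified in CLC Genomics Workbench by the authors, who deposited RPKM per gene; their annotation and handling of reads with several positions are not given in the sources used here. The deposited RPKM were tested with limma 3.58.1 (R 4.3.3) as log2(RPKM + 0.5), with a trend, over 11979 genes at 1 RPKM or more in at least 2 libraries, 4 group means over all 11 libraries (7 residual degrees of freedom) and Benjamini-Hochberg adjustment per comparison at 0.05. The 10 genes and the gene lists were chosen with earlier results of these data known. Other pathway genes were named by the size of their change, up to 8 per list. Some results that this rule would name are not reported here. The authors used edgeR on counts, which were not analysed here. Mapped totals were recovered by matching RPKM times GENCODE M21 exon length to whole reads (within 0.03), which succeeded for 79.7% to 80.8% of values under 100 reads; rounded reads of 11591 genes entered limma-voom. Replicates are libraries of 3 pooled mice each, whose sorting sessions the labels do not give. The paper states that the mice of a library were combined across sessions. What the replicate number stands for is therefore not known. Same-numbered libraries deviated together for WT NS and Act NS (correlations 0.554, 0.423 and 0.334) and for WT NS and WT 5dw (0.188, 0.120 and 0.109), as well as for Act NS and WT 5dw (0.222, 0.195 and 0.263), a pairing seen only in the data, but not for Act 5dw with Act NS (0.0187 and 0.143) or WT 5dw (-0.0777 and 0.189). Alternatives were pseudocounts of 0.1 and 1, no filter, a filter at 5 RPKM, median-ratio scaling, the replicate block, the compared groups alone, limma-voom and each library left out.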

Additional observations from a re-analysis of the deposited data

How the results depend on the processing

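The count of the 10 genes called was 5 in WT and 2 in Act wounds, all lower, beside 48.8% and 36.5% of all genes. It was 1 in WT after median-ratio scaling and 1 with limma-voom (Smad4, higher, in both, beside 22.4% and 22.8% of all genes higher), and in Act 1 with limma-voom (Smad4, beside 18.7%) and 1 with a filter at 5 RPKM (Ski, lower, beside 36.4%), which removed Smad6. That filter left 4 in WT (Ski, Smurf2, Smad5 and Smad3, lower, beside 46.6%). Leaving out 1 library gave 5 to 7 in WT and 2 to 4 in Act, the highest without Act NS replicate 1, where 51.3% and 41.2% of all genes were lower. No alternative called any of the 10 between genotypes or for the interaction. With the replicate block, 5 were called in WT and 3 in Act (Smad3 joined at -0.41, adjusted p = 0.0394), all lower, beside 50.9% and 38% of all genes, and the block changed no other call among the 10 genes. Under the block, the log2FC also changed sign, without a call, for Smad1 in the Act wounding comparison (0.11) and for Smad4 (0.0196), Smad7 (0.0511) and Smurf2 (0.0528) between genotypes in 5dw.

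Scaling reversed signs, also of values as far from 0 as the median of all genes. With median-ratio scaling and limma-voom, in that order, the WT wounding log2FC was 0.27 and 0.30 for Smad1, 0.14 and 0.15 for Smad2, 0.40 and 0.41 for Smad4, and 0.14 and 0.15 for Smad7. In Act it was 0.34 and 0.35 for Smad1, 0.16 and 0.17 for Smad2, 0.0271 and 0.0279 for Smad5, and 0.0272 and 0.0333 for Skil. Between genotypes in NS it was 0.0955 and 0.112 for Smad1, 0.0252 and 0.0271 for Smad4, 0.0644 and 0.0662 for Smad5, 0.0819 and 0.0548 for Smad6, and with limma-voom 0.00661 for Ski. In 5dw it was 0.0395 and 0.0408 for Smad4, 0.0359 and 0.0374 for Smad7, and 0.00462 and 0.00357 for Smurf2. The interaction of Ski was -0.0238 and -0.0322. A pseudocount of 0.1 gave 0.000854 for Smad1 in Act wounds. Of these, only Smad4 in the wounding comparisons was called.

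Leaving out 1 library moved these log2FC across 0, none of them called. The wounding comparison ran from -0.0761 to 0.0066 for Smad4 in WT and from -0.17 to 0.139 for Smad1 in Act. Between genotypes in NS the ranges were -0.148 to 0.135 for Smad1, -0.089 to 0.162 for Smad3, -0.14 to 0.0104 for Smad5, -0.244 to 0.135 for Smad6, -0.0223 to 0.202 for Smad7, -0.0866 to 0.307 for Skil and -0.311 to 0.0131 for Ski. In 5dw they were -0.0171 to 0.261 for Smad1, -0.0363 to 0.0298 for Smad4, -0.0825 to 0.338 for Smad5, -0.12 to 0.0549 for Smad7 and -0.129 to 0.0602 for Smurf2. For the interaction they were -0.0132 to 0.296 for Smad1, -0.0242 to 0.248 for Smad2, -0.012 to 0.409 for Smad5, -0.277 to 0.102 for Smad6, -0.206 to 0.0182 for Smad7, -0.0778 to 0.316 for Skil and -0.0782 to 0.246 for Ski.

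With 2 Act 5dw libraries and pooled mice, the widest intervals between genotypes reached -0.61 (Smad6) and 0.77 (Skil) on the log2 scale, and fold changes of Smad6 are understated by the pseudocount. Where scaling changed a call, the cause was not tested.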
